A study of Mus musculus with 15 samples.

Results

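Neural lineage genes are genes that mark the passage from a pluripotent cell to a neural progenitor and on to a neuron. The set described here named 9 genes, chosen by name for their known roles in neural development: Sox1, Pax6, Pax3, Nes, Zic1, Neurog2, Tubb3, Map2 and Dcx. Of these 9 genes, 8 were found among the 26061 genes of the expression table, with Map2 under its older symbol Mtap2, and Sox1 was not analysed here. All 8 passed the filter for testing, a read in at least 5 of 15 libraries, as did 19490 genes in all.

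The measurements came from RNA-seq of rRNA-depleted RNA of the mouse line E14, embryonic stem cells (ESCs) of 129/Ola background, grown without feeders in serum and LIF, a factor that keeps ESCs from differentiating. All cells carried a lentiviral short hairpin RNA (shRNA) and had been selected in puromycin for 3 days. The 3 groups, each of 5 libraries, held a non-targeting hairpin (shScr), a hairpin against Tet1 (shTet1) or a hairpin against Tet2 (shTet2). Each target was hit with 1 hairpin sequence in 1 cell line, and no group was made to differentiate, so that the values describe neural genes in ESC culture. Nothing in the labels says that replicates were separate infections, and p-values measure the spread between these libraries only.

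TET1 and TET2 oxidise methylated cytosine in DNA, mostly where a C is followed by a G (CpG). Neural fate is known to unfold in steps. Sox1, Pax6 and Zic1 are transcription factors of the neural plate and of early progenitors, Pax3 acts in the dorsal neural tube and neural crest, and nestin, the product of Nes, is an intermediate filament of dividing progenitors. Neurog2 is a proneural factor that starts neuronal differentiation. Tubb3, Map2 and Dcx encode a beta-tubulin, a dendritic microtubule-binding protein and a microtubule-binding protein of migrating neurons.

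Values are given on the deposited variance-stabilised scale, which approaches log2 for well-covered genes and on which 4.25 stands for 0 reads, and as reads recovered from it. Libraries held between 15258291 and 35432425 gene reads. Each target was lower under its hairpin: Tet1 averaged 12.15 ± 0.18 in shTet1 against 13.99 ± 0.21 in the controls, and Tet2 averaged 11.42 ± 0.20 in shTet2 against 13.33 ± 0.15 (SD over 5 libraries, limma adjusted p = 0.000228 and 3.67e-07, Benjamini-Hochberg). The 8 ESC markers examined, among them Pou5f1 and Nanog, had at least 2939 normalised reads in every library. A component of the deviations from group means held 37.9% of their variance and set replicates 1 and 2 apart from replicates 3 to 5 in every group. The labels give no batch. Differences within each of these subsets are therefore printed for the measured members against shScr and for the listed genes called in a comparison.

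The stretches before the start sites of 4 members are shown because TET enzymes act on CpG and these 4 include the members with the most and the fewest CpG and, for RNA, the highest member and a pair near 0 reads. Each is the 250 bases upstream of a RefSeq start site on GRCm38, written 5′ to 3′ on the strand of the gene with each CpG in capitals. Tubb3 is at chr8:123411303-123411552 (plus strand), Map2 at chr1:66175079-66175328 (plus strand), Zic1 at chr9:91365769-91366018 (minus strand) and Dcx at chrX:143933220-143933469 (minus strand).
Tubb3: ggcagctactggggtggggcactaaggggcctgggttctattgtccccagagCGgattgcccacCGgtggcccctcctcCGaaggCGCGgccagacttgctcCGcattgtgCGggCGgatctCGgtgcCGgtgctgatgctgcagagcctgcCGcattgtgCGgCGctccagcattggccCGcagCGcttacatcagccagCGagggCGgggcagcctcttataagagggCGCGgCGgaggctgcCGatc
Map2: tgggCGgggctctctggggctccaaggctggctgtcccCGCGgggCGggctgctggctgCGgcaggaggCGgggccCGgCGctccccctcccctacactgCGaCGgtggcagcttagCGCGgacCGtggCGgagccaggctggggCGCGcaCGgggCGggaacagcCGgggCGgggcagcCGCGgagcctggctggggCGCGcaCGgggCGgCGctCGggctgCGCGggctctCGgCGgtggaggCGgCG
Zic1: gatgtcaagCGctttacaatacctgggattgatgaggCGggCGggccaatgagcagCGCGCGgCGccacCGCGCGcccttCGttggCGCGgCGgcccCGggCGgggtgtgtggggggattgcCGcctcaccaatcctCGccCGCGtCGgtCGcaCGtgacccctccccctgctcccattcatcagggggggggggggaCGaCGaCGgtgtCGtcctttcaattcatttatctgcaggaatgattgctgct
Dcx: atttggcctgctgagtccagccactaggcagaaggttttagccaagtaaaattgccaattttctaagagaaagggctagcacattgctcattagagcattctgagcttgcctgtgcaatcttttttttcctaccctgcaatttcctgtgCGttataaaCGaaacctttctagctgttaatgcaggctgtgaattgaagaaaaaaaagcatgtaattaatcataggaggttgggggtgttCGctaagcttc

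RefSeq start sites were matched for 7 of the 8 members. Tubb3 had 21 CpG in its window, Map2 34, Zic1 27 and Dcx 3, against a median of 6 over the windows of all 32851 start sites. Nes had 15, both Pax6 start sites 15 and Neurog2 8. The GC box GGGCGG, read on either strand, was present for Tubb3, Nes, Map2, Zic1 and Neurog2, and in 32.7% of all windows. The letters TATAAA, on either strand, were present for Dcx and in 12.4% of all windows. The windows of the 4 members with reads in every library held 15 to 34 CpG. Of the 3 matched members near 0 reads, Dcx and Neurog2 had the fewest CpG of all, whereas Zic1 had more than Tubb3. DNA methylation was not measured in these libraries.

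Per kilobase of exon, the members fell into a measured and a scarce set. Tubb3 was highest, at 21.6 ± 4.81 reads per kilobase of exon and per 1000000 gene reads (RPKM; SD, n = 15), above 88.3% of all genes. Nes followed with 4.81 ± 1.79 RPKM, Map2 with 1.32 ± 0.46 and Pax6 with 0.333 ± 0.145, ranks above 71.7%, 59.1% and 48.0% of genes. This order of the 4 genes held in all 15 libraries, although the ranges of Nes and Map2 over libraries met. Zic1, Pax3, Neurog2 and Dcx averaged 0.0283, 0.0220, 0.00816 and 0.00741 RPKM, and no order could be read among them: Zic1 exceeded Pax3 in 8 of 15 libraries, and the ranges of neighbours overlapped. The plot of the members by library shows both sets.

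**Figure D1:**
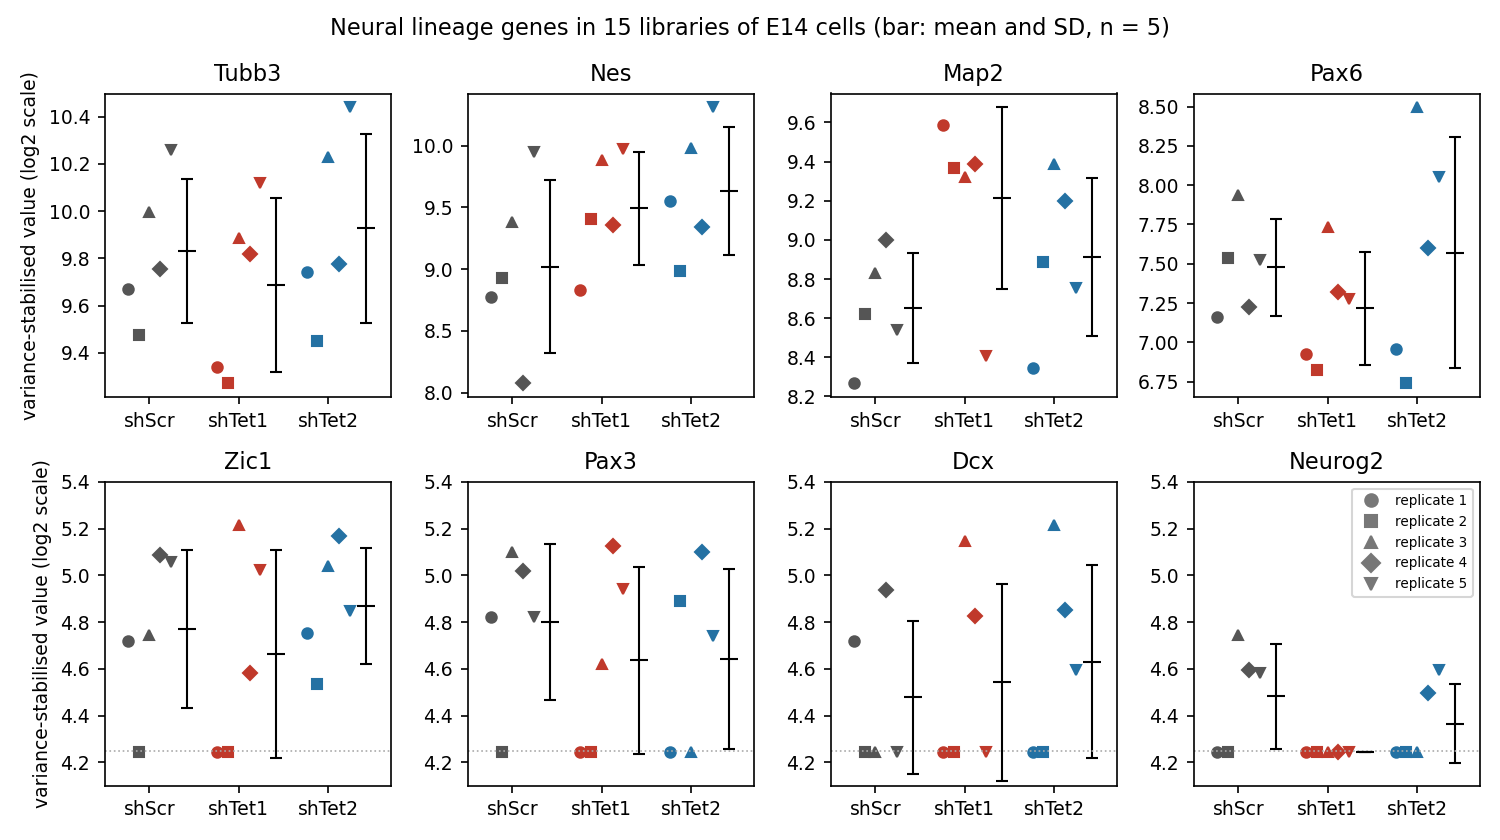
Variance-stabilised value (log2 scale) of the 8 members in each library, by group; marker shapes stand for replicate numbers, black bars for mean ± SD of 5 libraries, and the dotted line in the lower row for 0 reads (4.25). The upper 4 genes lie between 6.74 and 10.44 and the lower 4 between 4.25 and 5.22, and in no panel are the groups separated.

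Nes (chromosome 3, 87775000 to 87784373, plus strand, mm9) had the highest RPKM of the progenitor genes among the 8 members. Its values in shScr replicates 1 to 5 were 8.78, 8.93, 9.38, 8.08 and 9.95, from 210 reads in replicate 4 to 924 in replicate 5. In shTet1 they were 8.83, 9.41, 9.89, 9.36 and 9.97, and in shTet2 9.55, 8.99, 9.98, 9.34 and 10.31. The control libraries spanned the widest range and held the lowest value, and the groups overlapped. Nes was 0.47 higher in shTet1 than in shScr (SE 0.31, 95% interval -0.17 to 1.11, limma adjusted p = 0.603) and 0.61 higher in shTet2 (interval -0.030 to 1.25, limma adjusted p = 0.463), or 1.34 and 1.499 times in mean normalised reads. Neither passed the test, and both intervals reach past 1 log2 unit. Within replicates 1 and 2 the differences were 0.27 and 0.42, and within replicates 3 to 5 they were 0.61 and 0.74. All 5 same-numbered pairs had a higher Nes value in shTet1 than in shScr, and with the replicate block the interval was 0.11 to 0.83 (limma adjusted p = 0.124).

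Pax6 (chromosome 2, 105509053 to 105543317, plus strand, mm9) was the only neural transcription factor of the set with reads in all 15 libraries, 94 to 277 of them. Its values were 7.16, 7.53, 7.94, 7.23 and 7.52 in the controls, 6.93, 6.83, 7.73, 7.32 and 7.28 in shTet1, and 6.96, 6.74, 8.50, 7.60 and 8.05 in shTet2. Libraries of shTet2 held both the lowest and the highest Pax6 value, with an SD of 0.73 against 0.31 in shScr. Pax6 was 0.26 lower in shTet1 (interval -0.85 to 0.33, limma adjusted p = 0.792; -0.47 within replicates 1 and 2 and -0.12 within replicates 3 to 5) and 0.094 higher in shTet2 (interval -0.50 to 0.68, limma adjusted p = 0.949) than in shScr. The shTet2 difference was -0.50 within replicates 1 and 2 and 0.49 within replicates 3 to 5, so that it changed sign between the subsets, and it was -0.014 when each library was centred on its median. Exons of Elp4, a gene on the opposite strand, cover 27.9% of the Pax6 exon bases. The sources do not state whether strand was used in counting, and reads of that stretch cannot be told apart between both genes. Elp4 itself averaged 9.20 in the controls, 9.23 in shTet1 and 9.32 in shTet2, and 3.75 RPKM over the 15 libraries.

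Tubb3 (chromosome 8, 125935324 to 125945915, plus strand, mm9), used as a marker of young neurons, was the best measured member with 537 to 1468 reads per library. Its values were 9.67, 9.47, 9.995, 9.75 and 10.26 in the controls, 9.34, 9.27, 9.89, 9.82 and 10.12 in shTet1, and 9.74, 9.45, 10.23, 9.77 and 10.44 in shTet2. No stretch of 75 bases in its transcripts, the read length, was shared with transcripts of another protein-coding gene of the annotation. No full-length read from the transcripts of another protein-coding tubulin gene therefore matches it perfectly. Pseudogenes and noncoding genes were not searched. The groups overlapped nearly in full. The difference was -0.14 for shTet1 (interval -0.58 to 0.29, limma adjusted p = 0.860) and 0.096 for shTet2 (interval -0.34 to 0.53, limma adjusted p = 0.918), with intervals that end short of 1 log2 unit in both directions, and the shTet2 difference became -0.012 when each library was centred on its median. Within replicates 1 and 2 the differences were -0.27 and 0.025, and within replicates 3 to 5 they were -0.061 and 0.14. Between the knockdowns, Tubb3 was 0.24 higher in shTet2 (interval -0.19 to 0.67, limma adjusted p = 0.678), with 0.29 and 0.20 in the same subsets. With the replicate block the interval of this difference was 0.036 to 0.44 (limma adjusted p = 0.127).

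Map2 (chromosome 1, 66221847 to 66489157, plus strand, mm9) had the lowest p-value of any member in the fit without the replicate block. Its values were 8.27, 8.62, 8.83, 8.997 and 8.54 in the controls, 9.59, 9.37, 9.32, 9.39 and 8.41 in shTet1, and 8.34, 8.89, 9.38, 9.20 and 8.75 in shTet2. Replicates 1 to 4 of shTet1 lay above all 5 control libraries, and replicate 5 of shTet1 lay within the range of the controls. Map2 was 0.56 higher in shTet1 than in shScr (SE 0.22, interval 0.095 to 1.03), 1.56 times in mean normalised reads. The unadjusted limma p of 0.0210 became 0.311 after Benjamini-Hochberg adjustment. An exact permutation test, two-sided and without pairing, gave p = 0.0635 for the same 10 libraries. With the replicate block the interval was 0.19 to 0.94 (limma adjusted p = 0.0773). Of the 5 same-numbered pairs, 4 had a higher Map2 value in shTet1 than in shScr. The difference was 1.03 within replicates 1 and 2 and 0.25 within replicates 3 to 5. In shTet2 it was 0.26 (interval -0.21 to 0.73, limma adjusted p = 0.730), with 0.17 and 0.32 in the same subsets.

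The other 4 members were at the limit of detection. Zic1 (chromosome 9, 91252896 to 91260648, minus strand) had 54 reads in all 15 libraries together (95% Poisson interval 40.6 to 70.5), Pax3 (chromosome 1, 78097842 to 78193709, minus strand) 48 (35.4 to 63.6), Dcx (chromosome X, 140290385 to 140367854, minus strand) 28 (18.6 to 40.5) and Neurog2 (chromosome 3, 127336054 to 127338549, plus strand) 6 (2.20 to 13.1). The intervals cover counting error only. By group, Zic1 had 16 control reads, 13 in shTet1 and 25 in shTet2, and Pax3 had 17, 12 and 19. Dcx had 6, 9 and 13 reads, all from 2 or 3 libraries of each group. Neurog2 had 4 reads in shScr and 2 in shTet2. It had none in shTet1. A count of 0 still allows 3 reads if only an upper limit is set, or 0.0262 reads per 1000000 gene reads (RPM). In shScr 0.0394 RPM were observed. The 95% Poisson intervals of both counts overlapped, at 0 to 3.69 reads in shTet1 and 1.09 to 10.2 in shScr. Differences of these 4 genes between groups were not detectable at this depth.

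Reads of the scarce members were not spread evenly over the libraries. As a measure from genes that ESCs are not known to use, the reads of 1439 olfactory and vomeronasal receptor genes were counted. They made up 53.3 to 63.4 RPM in 4 libraries (shScr replicate 4, shTet1 replicates 3 and 4 and shTet2 replicate 4) and 9.43 to 26.3 in the other 11. The scarce members together had 0.544 to 0.931 RPM in the former and 0 to 0.655 in the latter, with medians of 0.818 and 0.332. Dcx had 19 of its 28 reads in the 4 libraries, or 0.206 RPM against 0.0364 in the other 11, and Zic1 had 0.303 against 0.105. The sums also differed by replicate number, at 0 to 0.332 RPM in replicates 1 and 2 and 0.344 to 0.655 RPM in the libraries of replicates 3 to 5 that were not receptor-rich. The part of these receptor-rich libraries and of the replicate numbers in the scarce members' values was not tested. The plot of scarce members against receptor reads shows each library.

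**Figure D2:**
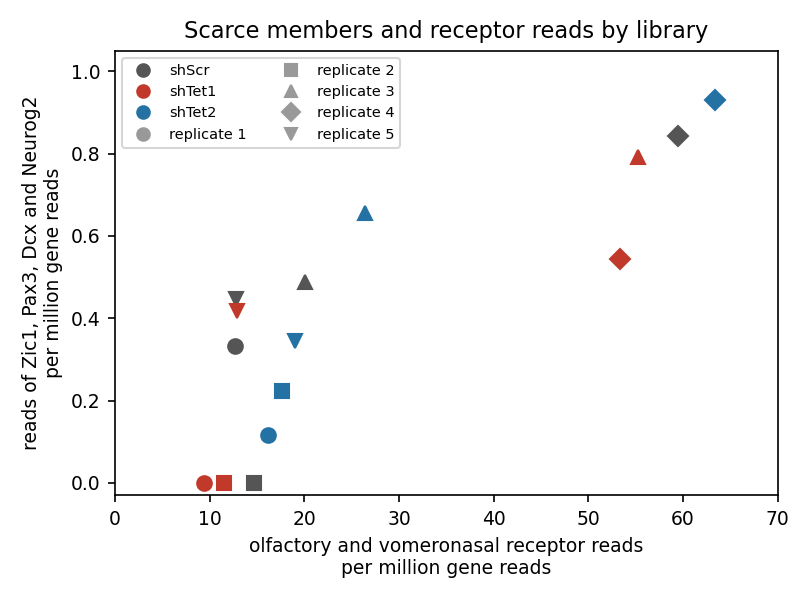
Summed reads of Zic1, Pax3, Dcx and Neurog2 in RPM (vertical axis) against reads of olfactory and vomeronasal receptor genes in RPM (horizontal axis); each point is 1 library, colours stand for groups and shapes for replicate numbers. The 4 libraries at 53.3 to 63.4 RPM of receptor genes hold the 3 highest sums, up to 0.931, and 3 libraries hold 0.

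No member changed past the threshold in either knockdown. At a limma adjusted p under 0.05 (Benjamini-Hochberg over all genes tested), 0 of 8 members were called in shTet1 against shScr, where 0.0718% of all genes were called, 0 of 8 in shTet2 against shScr, with 0.39% of all genes, and 0 of 8 in shTet2 against shTet1, with 4.24%. These counts are near the background. At an unadjusted p under 0.05 the numbers were 1 (Map2), 0 and 0 members, against 11.8%, 11.6% and 15.7% of all genes. With weights from voom on the recovered reads, 0 members passed in any comparison. With the replicate block 0 members passed in shTet1 against shScr or in shTet2 against shTet1, whereas 4.8% and 11.2% of all genes did. The median difference of the 8 members was -0.13, 0.097 and 0.13 in the 3 comparisons, beside 0.013, 0.038 and 0.015 for all genes. Both knockdowns were set against the same 5 shScr libraries. The call counts were also 0 in all 3 comparisons without the 4 receptor-rich libraries and with replicates 3 to 5 only.

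**Figure D3:**
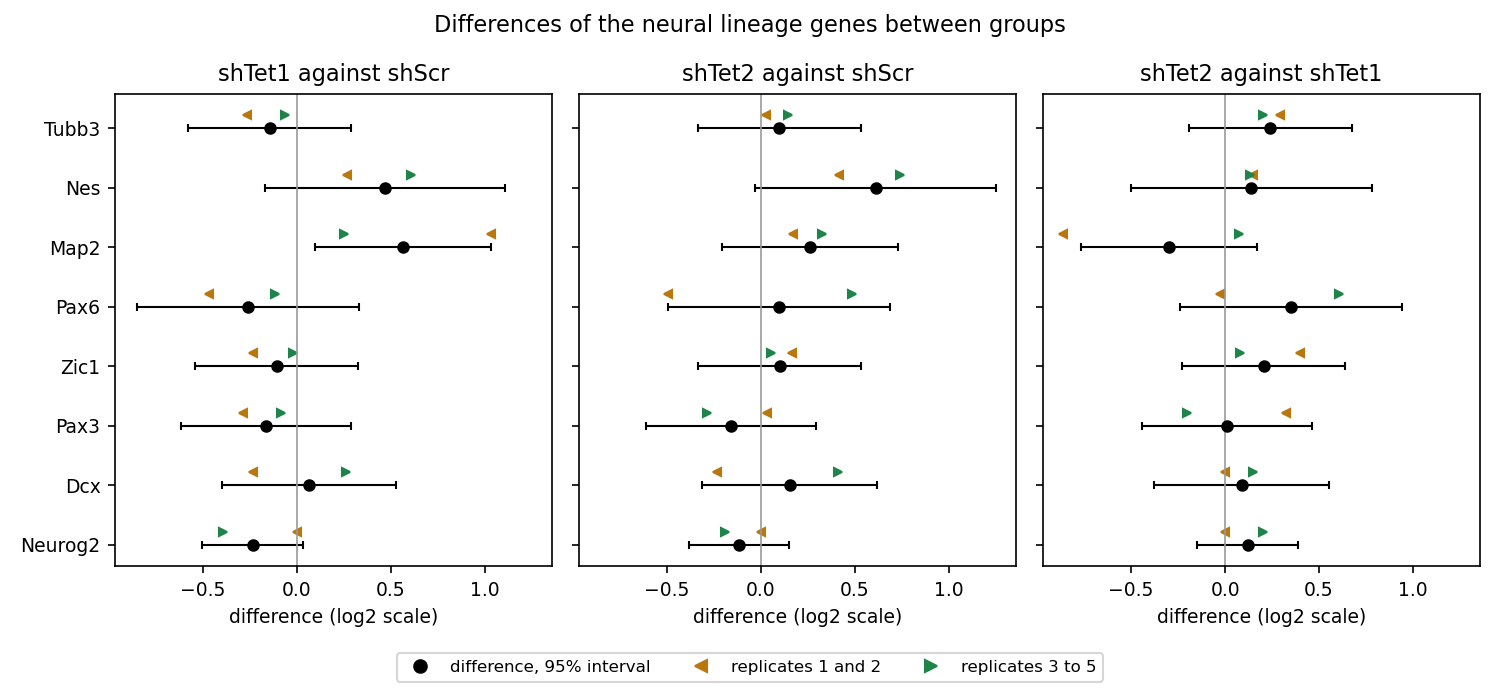
Difference of each member between groups (log2 scale, horizontal axis) in the 3 comparisons; black points and bars give the difference with its 95% interval, and triangles the difference within replicates 1 and 2 and within replicates 3 to 5. The intervals are from the fit without the replicate block, and all but that of Map2 in shTet1 against shScr (0.095 to 1.03) include 0.

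Tubb3, Pax6 and Nes varied more between replicate numbers than the median gene did. By construction, 5 replicate numbers take up more variation than 3 groups, and shares are therefore set beside those of all genes. Of the variation of Tubb3 over the 15 libraries, 86.4% lay between the 5 replicate numbers and 8.55% between the 3 groups. The shares were 67.1% and 9.85% for Pax6 and 61.6% and 20.8% for Nes, whereas Map2 had 34.8% and 30.3%. Over all genes tested the medians were 43.3% and 15.7%, so that Map2 was below the median gene for replicate number and above it for group. Tubb3 averaged 9.49 in replicates 1 and 2 and 10.03 in replicates 3 to 5, and the second mean was higher within shScr, shTet1 and shTet2 by 0.43, 0.64 and 0.55. Pax6 averaged 7.03 and 7.69, and Nes 9.08 and 9.58, with the same direction in all 3 groups. For Map2 the direction was mixed, at 0.35 in the controls, -0.44 in shTet1 and 0.50 in shTet2. The labels name 2 RNA extraction methods without assigning them to libraries, and their part in this split was not tested.

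**Figure D4:**
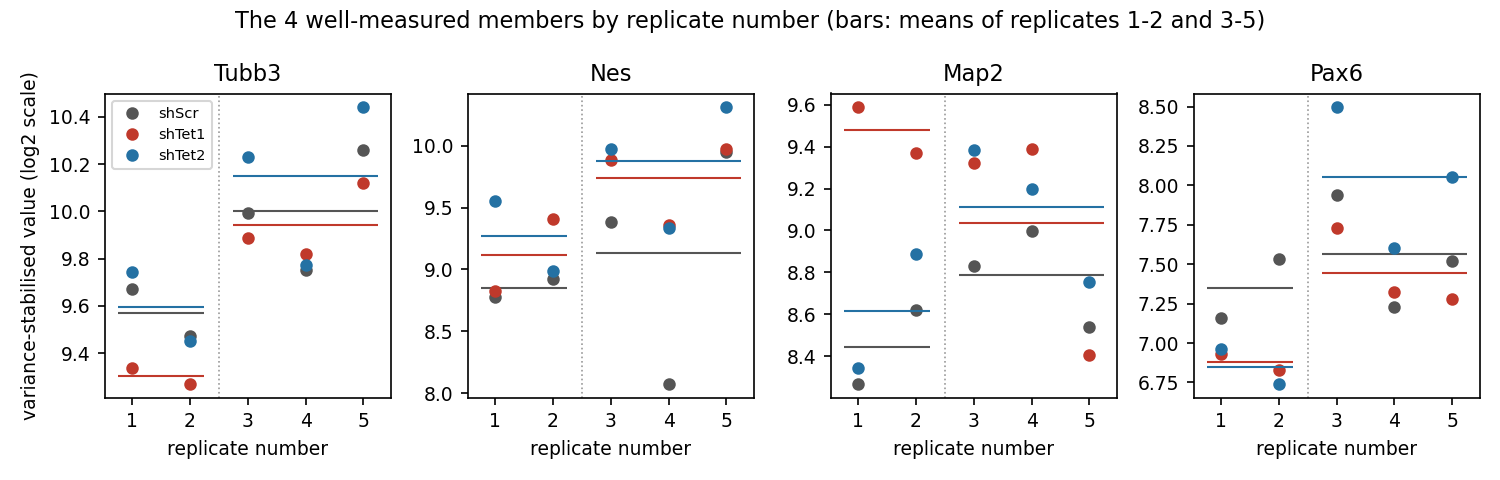
Variance-stabilised values (log2 scale) of Tubb3, Nes, Map2 and Pax6 by replicate number, with points for libraries, colours for groups, and short horizontal bars for the means of replicates 1 and 2 and of replicates 3 to 5. Tubb3 bars lie higher at the right in every group, by 0.43 to 0.64, and those of Map2 do so in shScr and shTet2 and lie lower in shTet1.

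Among the measured members, Tubb3 followed Nes and Pax6 from library to library. After removal of the group means, Pearson's r over the 15 libraries was 0.80 for Nes and Tubb3, 0.73 for Pax6 and Tubb3 and 0.63 for Pax6 and Nes. For Map2, r was -0.32 with Nes, -0.20 with Tubb3 and 0.30 with Pax6. These values are descriptions, since libraries of a replicate number share what they have in common. Among the genes whose values were most like those of Tubb3 were Smyd1 (r = 0.95) and Kcmf1 (0.94). For Nes they were Rpia (0.90), Bex1 (0.88) and Tubb5 (0.87), for Pax6 Marveld1 (0.87), Cul4b (0.85) and 2210009G21Rik (0.84), and for Map2 Fmn1 (0.92), Utrn (0.92) and Peli2 (0.87). For Dcx the 3 most alike genes, Car10, Muc5ac and Vmn2r67, averaged 0.797 to 1.40 normalised reads, so that their likeness rests on few reads.

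Other genes of the neural programme were taken from 6 further lists with 107 genes, of which 99 were tested. None passed in shTet1 against shScr or in shTet2 against shScr by limma, whereas 5 of 99 rose in shTet2 relative to shTet1 and 0 fell. This is 5.05% of the listed genes, beside 4.24% of all genes. At an unadjusted p under 0.05, 15, 22 and 25 of the 99 genes passed in the 3 comparisons, where 11.8%, 11.6% and 15.7% of all genes did. The 5 genes were Otx2, Lmx1a, Neurog1, Dll1 and Dclk1, and in each the mean of shScr lay between those of the knockdowns. With the replicate block, 16 listed genes were higher and 4 lower in shTet2 than in shTet1 (20.2% against 11.2% of all genes), and 4 were higher and 1 lower in shTet1 than in shScr (5.05% against 4.8%).

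Otx2, a homeobox factor of the epiblast and the anterior neural plate, was at 10.76, 10.82, 10.48, 10.41 and 9.91 in shTet2, at 9.70, 9.94, 9.44, 9.33 and 8.93 in shTet1, and at 9.97, 10.45, 9.51, 9.81 and 9.06 in shScr. It was 1.01 higher in shTet2 than in shTet1 (SE 0.24, limma adjusted p = 0.0192), although the groups overlapped by 1 library, and 0.72 higher than in shScr (limma adjusted p = 0.213). Lmx1a, a homeobox factor of the roof plate and of dopaminergic progenitors, was 1.24 higher in shTet2 than in shTet1 (SE 0.21, limma adjusted p = 0.00138), with means of 7.30 ± 0.22 and 6.06 ± 0.43 that did not overlap and 6.83 ± 0.29 in shScr (SD, n = 5). In shTet1 against shScr, Lmx1a differed by -0.78 without overlap of the groups (limma adjusted p = 0.125; 0.0182 with the replicate block), at -1.30 within replicates 1 and 2 and -0.43 within replicates 3 to 5. Of the 30 tested neuroectoderm and progenitor factors, 17 had a higher and 13 a lower mean in shTet2 than in shTet1, with a median difference of 0.031. Gbx2 and En2, homeobox factors of the midbrain and hindbrain region, differed by -0.91 and -0.65 (limma adjusted p = 0.306 and 0.0810; 0.00537 and 0.00544 with the replicate block).

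In the neurogenic list, the 2 genes that rose were Neurog1, a proneural factor related to Neurog2, and Dll1, a Notch ligand of nascent neurons. Neurog1 averaged 14.8 normalised reads in shTet2, 2.31 in shTet1 and 7.41 in shScr, a difference of 0.72 on the log2 scale between the knockdowns (SE 0.18, limma adjusted p = 0.0263). Dll1 averaged 489, 263 and 327 normalised reads in the same order, and the difference between the knockdowns was 0.80 (SE 0.22, limma adjusted p = 0.0443). Of the 14 tested genes of this list 13 had a higher mean in shTet2 than in shTet1, as did 52.7% of all genes. The median difference was 0.35 beside 0.015 for all genes. Hes6, which promotes neuronal differentiation, had the largest difference of the list from shScr, 1.02 in shTet2 (SE 0.37, limma adjusted p = 0.265).

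Dclk1, the doublecortin-like kinase related to Dcx, was at 6.98, 7.68, 6.61, 7.42 and 6.49 in shTet2, at 5.77, 6.08, 5.597, 5.96 and 4.85 in shTet1, and at 5.46, 6.32, 5.89, 6.66 and 5.51 in shScr. Every shTet2 library lay above every shTet1 library, and the difference was 1.38 (SE 0.28, limma adjusted p = 0.00766). Against shScr it was 1.07 (limma adjusted p = 0.108). Dclk1 was 1 of 30 tested genes of neuronal cytoskeleton, RNA binding and synapse, a list with a median difference of 0.24 in shTet2 against shScr and in shTet2 against shTet1. Syp, a protein of synaptic vesicles, was 0.80 higher in shTet2 than in shScr (SE 0.28, limma adjusted p = 0.241), and Kif5c, a kinesin, differed by -0.22 (limma adjusted p = 0.622).

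None of the 8 genes of progenitor filament, adhesion and RNA binding passed in any comparison in the fit without the replicate block. With the block, 2 of the 8 were higher in shTet1 than in shScr, where 4.8% of all genes were called. By the same fit, 2 were higher (Vim and Cdh2) and 1 lower (Prom1) in shTet2 than in shTet1, beside 11.2% of all genes. Prom1, a membrane protein of progenitors, was 0.98 higher in shTet1 than in shScr (SE 0.31, limma adjusted p = 0.188; 0.00130 with the replicate block), and Cdh2, which encodes N-cadherin, differed by -0.57 (limma adjusted p = 0.361). None of the 9 neural crest factors passed, and their median difference was -0.26 in shTet1 against shScr and 0.31 in shTet2 against shTet1. With the replicate block 2 of the 9 were higher in shTet2 than in shTet1, where 11.2% of all genes were called. These were Ets1 by 0.55 and Sox9 by 0.48 (limma adjusted p = 0.0160 and 0.0327). Sox9 averaged 4.495 over the 15 libraries, near the value of 0 reads, and was named after its value was seen. None of the 8 repressors of neuronal genes passed in the fit without the block. All 8 had a lower mean in shTet2 than in shTet1, with a median difference of -0.27, whereas 52.7% of all genes had a higher one. Rest, which encodes the repressor of neuronal genes in non-neuronal cells, averaged 14.07 ± 0.30 in shTet2, 14.41 ± 0.13 in shTet1 and 14.66 ± 0.16 in the controls (SD over 5 libraries). Rest had the largest negative difference of its list in shTet2 against shScr, -0.59 (SE 0.14, limma adjusted p = 0.0786). Every shTet2 library lay below every shScr library. The difference was -0.79 within replicates 1 and 2 and -0.46 within replicates 3 to 5. The limma adjusted p was 0.219 without the 4 receptor-rich libraries and 0.704 with replicates 3 to 5 only. Between the knockdowns Rest differed by -0.35 (limma adjusted p = 0.224; 0.0426 with the replicate block).

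The 5 calls in shTet2 against shTet1 did not hold in all subsets. Lmx1a and Dclk1 kept an adjusted p under 0.05 without any 1 of the 10 libraries (highest 0.00615 and 0.0277 by limma). Otx2 lost it without shTet2 replicate 1 or 2 (limma adjusted p = 0.0571 and 0.0617), with differences of 0.94 and 0.92. Neurog1 lost it without shTet1 replicate 2, 3 or 4 or shTet2 replicate 1, 2 or 3, at limma adjusted p between 0.0540 and 0.0815 and differences of 0.63 to 0.73. Dll1 lost it without shTet1 replicate 2, 3, 4 or 5 or shTet2 replicate 1, 2, 3 or 4, at limma adjusted p between 0.0682 and 0.126 and differences of 0.68 to 0.83. Without the 4 receptor-rich libraries the limma adjusted p of Lmx1a was 0.00999, that of Dclk1 0.0606, of Neurog1 0.0925, of Otx2 0.180 and of Dll1 0.252. With replicates 3 to 5 only, Lmx1a kept its call (limma adjusted p = 0.0443), and the values were 0.0816 for Otx2, 0.155 for Dclk1, 0.284 for Neurog1 and 0.290 for Dll1. Differences within replicates 1 and 2 and within replicates 3 to 5 had the same sign for all 5 genes, at 0.97 and 1.03 for Otx2, 1.51 and 1.06 for Lmx1a, 0.95 and 0.57 for Neurog1, 0.74 and 0.84 for Dll1 and 1.40 and 1.37 for Dclk1.

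**Figure D5:**
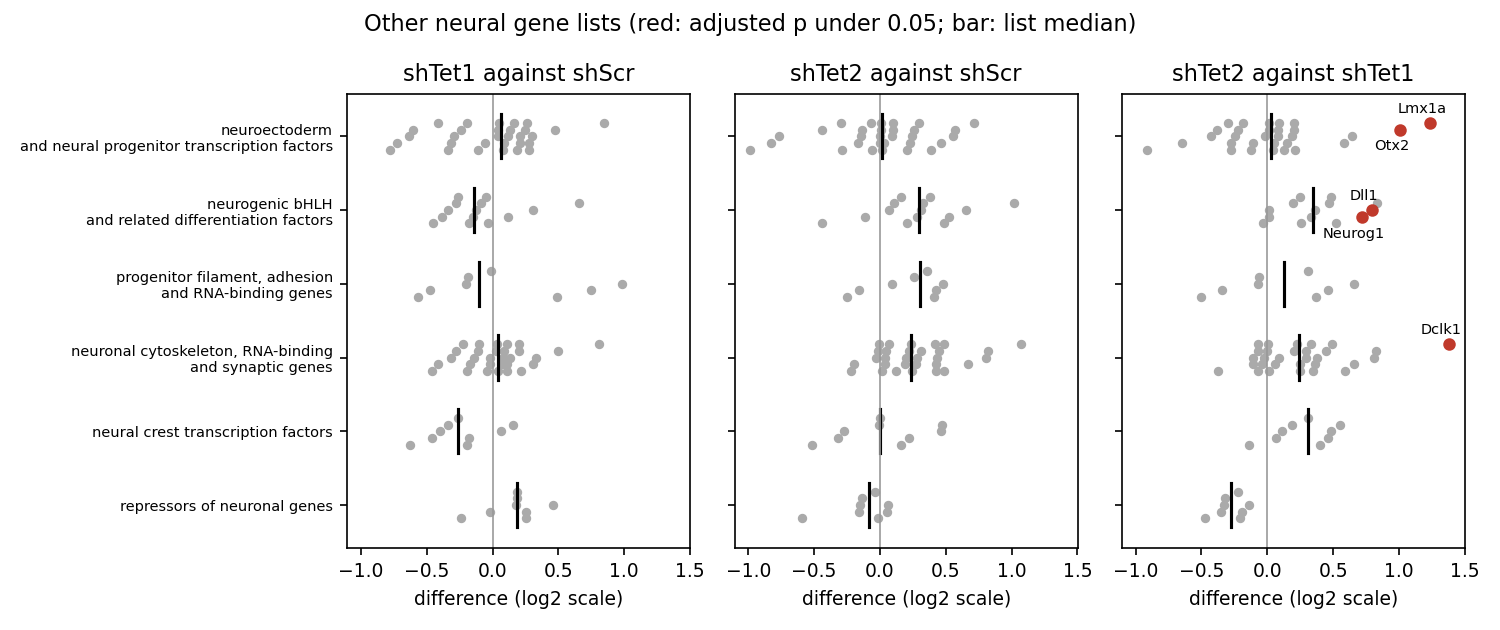
Differences (log2 scale, horizontal axis) of the 99 tested genes of 6 other neural lists in the 3 comparisons; grey points are genes, red points genes with a limma adjusted p under 0.05, and black bars list medians. Red points appear only in shTet2 against shTet1, at 0.72 to 1.38.

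Markers of other cell types were read beside the neural genes. In shTet2 against shTet1, where 4.24% of all genes were called, 1 of 8 ESC markers was lower (Fgf4, -0.59, limma adjusted p = 0.0126). Fgf4 averaged 11.91 in shScr, 12.28 in shTet1 and 11.68 in shTet2. All 8 ESC markers had lower means in shTet2 than in shTet1, whereas 52.7% of all genes had higher ones. Between the knockdowns, 1 of 5 tested glial markers was higher in shTet2 (Aqp4, 0.58, limma adjusted p = 0.0339). Aqp4 was near 0 reads, at a mean of 0.415 normalised reads in shTet1 and 4.53 in shTet2. Of 5 mesoderm markers 1 was lower (Eomes, -0.94, limma adjusted p = 0.0185). Eomes averaged 6.59 in shScr, 7.39 in shTet1 and 6.45 in shTet2. In all, 3 glial markers had higher and 2 lower means in shTet2 than in shTet1. The numbers were 2 and 3 for mesoderm and 2 and 4 for fibroblast markers. By the same fit 0 of 5 primitive endoderm markers and 0 of 6 fibroblast markers passed. All 5 primitive endoderm markers had lower means in shTet2 than in shTet1, with a median difference of -0.42. With the replicate block, where 11.2% of all genes were called, 1 of these 5 passed (Dab2, -0.79, limma adjusted p = 0.0353). By that fit 2 of 8 ESC markers were lower, Fgf4 and Dppa5a (limma adjusted p = 0.00226 and 0.0207). Pdgfra, 1 of 6 fibroblast markers, was also lower (-0.59, limma adjusted p = 0.0178). Eomes stayed lower and Aqp4 higher (limma adjusted p = 0.00207 and 0.00316). Fgf4, Dppa5a, Aqp4, Eomes, Pdgfra and Dab2 were named after their values were seen. Summed normalised reads of the 6 glial markers were 53.2 to 145 in the controls, 86.9 to 181 under shTet1 and 103 to 166 under shTet2, with S100b at 0 reads in shScr and shTet1. Summed reads of the 8 ESC markers were 99030 to 121300, 112700 to 140700 and 89560 to 112700 in the same order. The 5 primitive endoderm markers summed to 256 to 634, 233 to 438 and 87.7 to 277 normalised reads, the 5 mesoderm markers to 35.5 to 122, 116 to 206 and 66.2 to 123, and the 6 fibroblast markers to 393 to 527, 295 to 428 and 303 to 432. In bulk RNA, a change in the number of cells of a kind and a change in RNA per cell cannot be told apart, and the part of these markers in the neural values was not tested.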

How the data were processed

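RNA-seq was analysed for 15 libraries in 3 groups of 5, grouped by the sample titles. The authors trimmed reads with Trim Galore 0.3.3, aligned them to mm9 with TopHat2 2.0.9, counted reads per gene in Seqmonk and deposited variance-stabilised values from DESeq2 on a log2 scale. The sources used here do not state whether counting used strand. The deposited table of repeat elements was not used here.

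Inverting the transformation gave whole reads for 100% of values (tolerance 0.1 read, largest gap 0.000872), from which depth, normalised reads and RPKM were taken. Differences were tested on the deposited log2 values with limma 3.58.1 (trend, R 4.3.3) in 1 fit of all 15 libraries with group as the only term, over the 19490 genes above the table minimum in at least 5 libraries. A gene was called at a Benjamini-Hochberg adjusted p under 0.05. Exact two-sided permutation tests, Poisson intervals and tables used Python 3.11.15, scipy 1.17.1 and pandas 2.3.3. The limma steps were tested on simulated data. Intervals have a confidence level of 95%.

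Same-numbered libraries were taken as pairs where each of the 5 correlations of deviations from group means was over 0.1. This held for shTet1 against shScr (r 0.374 to 0.657) and shTet2 against shTet1 (0.33 to 0.731), and not for shTet2 against shScr (0.00789 to 0.769). The pairing comes from the data and not from the labels.

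Alternatives were other filters on low values, median centring, log2 of normalised reads plus 1, voom on the recovered reads, a fit of 2 groups, the replicate block and leaving out each library. Leaving out the receptor-rich libraries and using replicates 3 to 5 only were chosen after seeing the data. Positions are from GENCODE vM1 (mm9) and start sites from RefSeq (GRCm38). Besides members and calls, genes named from other lists are those with the 2 largest differences in each direction per list and comparison among genes with at least 50 normalised reads on average in a group. For likeness, the 3 genes with the highest Pearson correlation were named, except 1 that is not reported here. Members and lists were chosen with earlier results of these data known.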

Additional observations from a re-analysis of the deposited data

Results flagged for a closer look

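Map2 in shTet1 replicate 5 was far from the other shTet1 libraries. Its value there was 8.41 (268 reads), the next lowest shTet1 value was 9.32, and this gap made up 0.773 of the range of the group, above the Dixon limit of 0.71 for 5 samples. It was 1 of 23 groups of member values examined, and chance alone gives about 1 in 20. Without this library, Map2 was 0.77 higher in shTet1 than in shScr (limma adjusted p = 0.0652).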

How the results depend on the processing

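The 24 member differences gave 444 values under the alternatives. Of these, 422 kept their direction and their side of the threshold, 22 changed sign in 8 differences, and 0 passed the threshold. The 60 counts of members called, those of the main fit among them, were all 0. Centring each library on its median moved all genes by -0.11 in shTet2 against shScr, and the differences of Pax6, Zic1 and Tubb3 there became -0.014, -0.0091 and -0.012. That of Pax3 in shTet2 against shTet1 became -0.047. Dcx in shTet1 against shScr was -0.11 with voom and -0.12 without the receptor-rich libraries. With replicates 3 to 5 only, Pax3 was -0.20 and Map2 0.074 in shTet2 against shTet1. Leaving out 1 library at a time gave, for shTet1 against shScr, -0.088 to 0.18 for Dcx. For shTet2 against shScr it gave -0.14 to 0.30 for Pax6, -0.033 to 0.18 for Zic1 and -0.032 to 0.21 for Tubb3. For shTet2 against shTet1 it gave -0.11 to 0.13 for Pax3, -0.028 to 0.30 for Nes and -0.057 to 0.24 for Dcx. The cause of these changes was not tested. The lowest limma adjusted p of any member was 0.0550, for Nes in shTet2 against shScr with the replicate block. The block changed no call of a member, while the genes called of all tested went from 14 to 935 for shTet1 and from 76 to 840 for shTet2 relative to the controls, and from 827 to 2178 between the knockdowns. In shTet2 against shScr, same-numbered libraries did not pass as pairs. There the block called 13.1% of the 99 other neural genes, beside 840 of 19490 genes in all. Of these neural genes 10 were higher and 3 lower, Rest among the latter (limma adjusted p = 0.00596). With median centring the calls there were 5 higher and 34 lower in place of 43 and 33, and 437 and 327 in place of 561 and 266 in shTet2 against shTet1. Depth limits Zic1, Pax3, Dcx and Neurog2, with 6 to 54 reads each in all libraries together.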
